A study of Mus musculus with 34 samples.

Results

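Mouse embryonic stem (ES) cells that leave self-renewal change their gene expression within 2 days, and the 8 control RNA-seq libraries described here cover that change. They are the libraries of the control genotype in the experiment that set control beside Mta123KO ES cells, chosen by genotype alone, and make up 8 of the 34 samples of the series. Of these, 4 are labelled as grown in 2i/LIF (2iL) and 4 as cells 48 h after both inhibitors and LIF were taken away. All are ES cells of strain 129/Ola grown on gelatin, and differentiation towards neuroectoderm was in N2B27 without the inhibitors or LIF. The labels give the genotype as Control only. The paper describes its control line with a flox and a null or deleted Mta1 allele, wild-type Mta2 and flox Mta3 alleles, so these controls may carry altered Mta alleles in both cultures. Each group has the replicate numbers 1_1, 1_2, 2_1 and 2_2. The labels do not say whether the first digit is a cell line or the second a culture. With the replicate number as block, p-values measure how the culture difference varied over same-numbered pairs of libraries, a spread that may in part be technical.

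In 2iL medium 1 inhibitor blocks Mek, and so Erk signalling, the other blocks Gsk3, and so stabilises beta-catenin, and LIF activates Stat3. The inhibitors and LIF hold ES cells in the naive state of the preimplantation epiblast, with Esrrb, Nanog, Klf4 and Zfp42 among its best known markers. When they are withdrawn, naive genes are known to be silenced first and genes of the formative, postimplantation-like state, such as Otx2, Fgf5, Pou3f1 and Dnmt3b, to be induced before neural or other lineage genes.

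Sample labels and file names disagree on the culture of these libraries. Each of the 4 labelled 2iL has a file named for 48 h of differentiation, and each of the 4 labelled 48 h has a file named for 2iL. Groups are therefore called by their labels throughout, and every difference is given as labelled 2iL minus labelled 48 h, so that its sign would turn if the labels were exchanged.

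Known genes went with the file names. Values are CPM, counts scaled to a common library size with TMM normalisation, in the order of replicates 1_1, 1_2, 2_1 and 2_2. Esrrb, an orphan nuclear receptor of the naive network, was counted at 42.4, 68.8, 63.7 and 72.8 CPM in the libraries labelled 2iL and at 725, 649, 642 and 664 CPM in those labelled 48 h. Nanog, the homeobox factor that sustains self-renewal, had 47.8, 83.3, 62.4 and 74.8 CPM against 874, 1019, 858 and 992 CPM. For Klf4, a Krüppel-like factor downstream of Stat3, the values were 2.90, 7.82, 2.93 and 4.92 against 147, 147, 116 and 141 CPM. None of these 3 genes overlapped between the groups, and all were lowest where the label says 2iL. Zfp42 (Rex1), a zinc finger protein used as a reporter of the naive state, had 21.3, 23.3, 28.1 and 26.7 CPM in libraries labelled 2iL and 71.2, 69.02, 81.3 and 67.2 CPM in those labelled 48 h. Groups that do not overlap were common, at 54.1% of the 21240 genes tested, so the size of the change and its direction carry the comparison.

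In edgeR's quasi-likelihood test with the replicate number as block, the log2 fold changes (log2FC) were as follows: log2FC -3.46, SE 0.14, adjusted p = 1.64e-08 for Esrrb, log2FC -3.83, SE 0.09, adjusted p = 8.59e-10 for Nanog, log2FC -4.96, SE 0.19, adjusted p = 1.56e-08 for Klf4 and log2FC -1.54, SE 0.07, adjusted p = 3.29e-08 for Zfp42. All 4 naive markers were therefore lower in the libraries labelled 2iL, by 2.91 to 31.1-fold, and a gene was called when its Benjamini-Hochberg adjusted p was under 0.05 and its absolute log2 fold change above 1. The 5 formative markers went the other way. Pou3f1 (Oct6), a POU factor of the epiblast, had 89.8, 58.4, 81.1 and 61.00 CPM where the label says 2iL and 1.44, 2.004, 1.29 and 1.08 CPM where it says 48 h. Otx2, the homeobox factor that opens formative enhancers, had 22.6, 16.9, 15.8 and 9.29 against 3.31, 1.90, 1.89 and 0.891 CPM, and Fgf5 2.76, 1.84, 3.96 and 3.42 against 0.213, 0.0264, 0.334 and 0.164 CPM. Sox3 and Dnmt3b were higher in the libraries labelled 2iL too, by 4.12 and 3.49 on the log2 scale.

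The 9 libraries of parental or wild-type ES cells from the single-mutant experiment, for which labels and file names both give 2iL, offer a reference. They were sequenced as a separate set, so levels are set side by side over the genes listed in both sets and were not tested. Esrrb had a median of 776 CPM of such counts in the parental libraries, 962 in control labelled 48 h and 102 in control labelled 2iL. For Nanog the medians were 1375, 1360.5 and 106 CPM, and for Dnmt3b 84.6, 112 and 1279.9 CPM. Zfp42 was the least even of the 4 naive markers there, at 81.6 to 837 CPM over the parental libraries. For all 9 markers the parental median lay nearer to that of the control libraries labelled 48 h. By these naive and formative genes the libraries labelled 48 h are the ones with the levels of 2iL culture, and those labelled 2iL the ones with the levels known for cells out of it, as their file names have it.

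**Figure D1:**
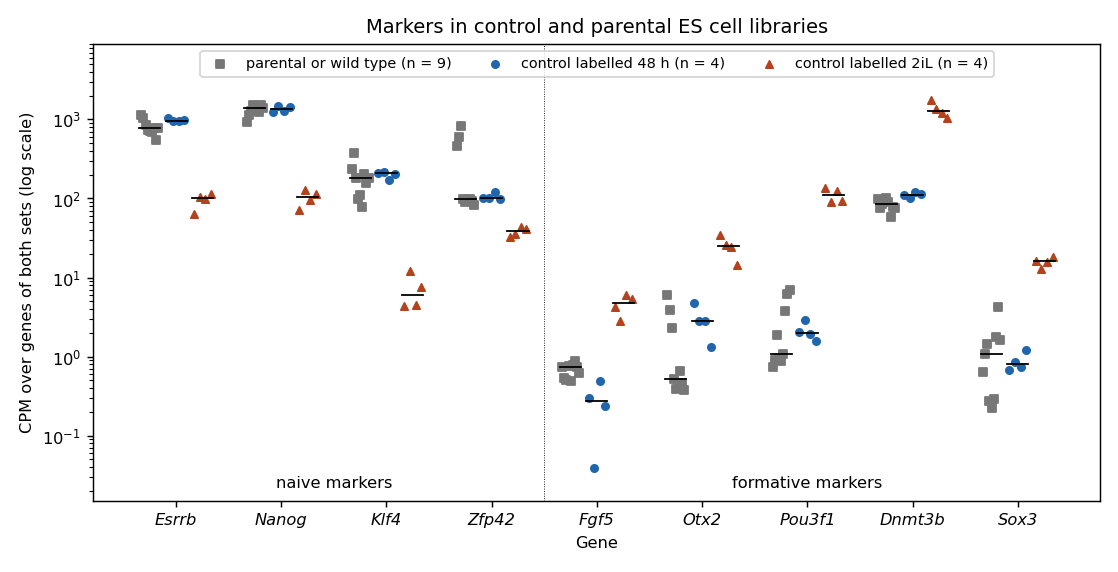
Levels of 4 naive and 5 formative markers in each library, as CPM over the genes listed in both sets (log axis), for 9 parental or wild-type, 4 control labelled 48 h and 4 control labelled 2iL libraries, with a bar at each median. The control libraries labelled 48 h lie beside the parental libraries for naive and formative genes, and those labelled 2iL lie apart.

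Total counts ran from 44634515 to 50880254 in the libraries labelled 2iL and from 37855790 to 57602285 in those labelled 48 h. Mitochondrial genes took 10.4 to 11.9% of counts over the 8 libraries, and spike-in RNA 0.791 to 0.821% and 0.584 to 0.916% where labelled 2iL and 48 h. Pairs of libraries of 1 group correlated at 0.985 to 0.993 across genes (log2 CPM), and libraries of different groups at 0.907 to 0.924. On the first principal component (PC1), with 82.0% of the variance, the groups stood apart, and the second, with 6.82%, separated libraries whose number starts with 1 from those that start with 2 in both groups.

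**Figure D2:**
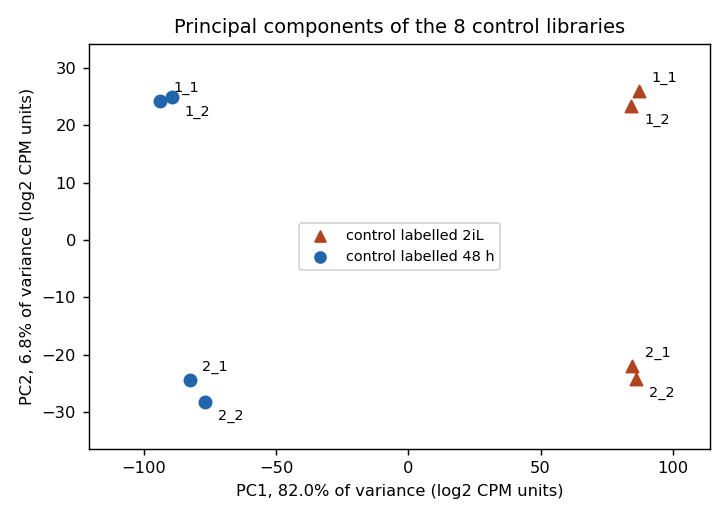
Principal components 1 and 2 of log2 CPM for the 8 control libraries, with triangles for labelled 2iL, circles for labelled 48 h and the replicate number beside each point. PC1 (82.0% of variance) separates the culture labels and PC2 (6.82%) the first digit of the replicate number.

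Between the cultures 5102 of 21240 genes tested were called (24%), 2881 higher (13.6%) and 2221 lower (10.5%) in the libraries labelled 2iL. Counts of list members called, given below, are to be read beside these shares. More than 8-fold differences were found for 565 of the higher and 448 of the lower genes, and differences of more than 64-fold for 49 and 57. The genes called higher took 4.52 to 4.65% of counts in the libraries labelled 2iL and 1.33 to 1.48% in those labelled 48 h, and the genes called lower 1.97 to 2.14% and 6.73 to 7.29%. Protein-coding genes were called higher in 2180 and lower in 1677 of 15123 cases, and annotated miRNA genes, which these kits capture as precursors or host transcripts if at all, higher in 82 and lower in 22 of 408. Over all genes tested the median log2 fold change was -0.0047 and the median absolute change 0.42.

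**Figure D3:**
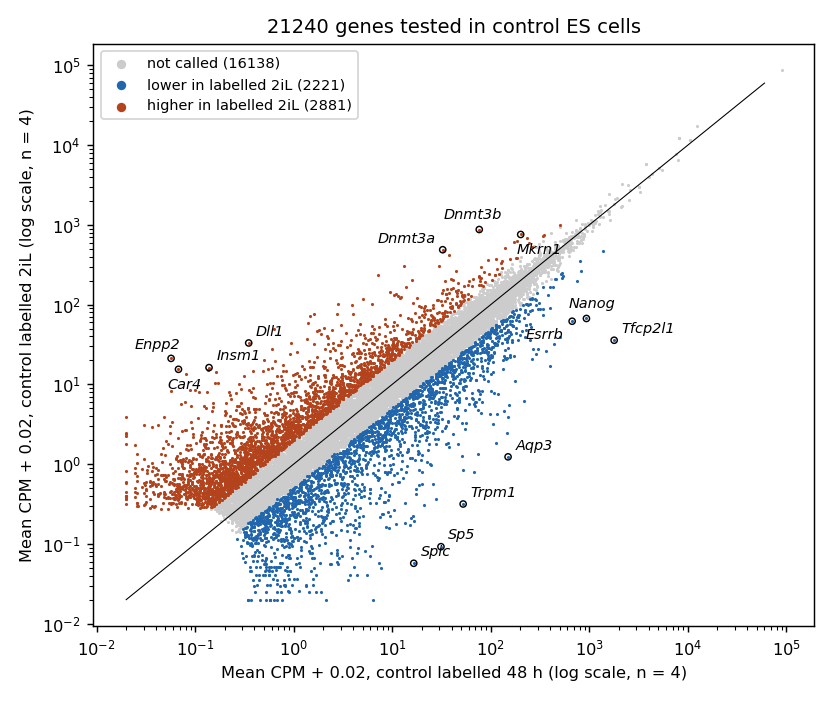
Mean CPM (plus 0.02, log axes) of 21240 genes in the 4 control libraries labelled 48 h and the 4 labelled 2iL, with named genes circled. Of these, 2881 genes called higher in labelled 2iL lie above the diagonal and 2221 called lower lie under it.

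The naive programme was lower as a group in the libraries labelled 2iL. Of 22 naive genes all were tested, 20 were called lower and 1 higher, with a list median of -3.31. Tfcp2l1, the transcription factor through which LIF and Wnt signals sustain self-renewal, had the largest loss in CPM of any gene called, with 29.03, 41.8, 33.95 and 38.2 CPM where the label says 2iL and 1936, 1877, 1712 and 1630.1 CPM where it says 48 h (log2FC -5.65, SE 0.11, adjusted p = 4.19e-10). Prdm14, which keeps DNA methylation low in naive cells, had 0.513, 1.07, 0.948 and 0.794 CPM in libraries labelled 2iL and 49.6, 59.2, 44.2 and 56.9 CPM in those labelled 48 h (log2FC -5.98, SE 0.13, adjusted p = 8.40e-10). Tbx3, a T-box repressor, had 1.86, 4.19, 4.31 and 5.05 against 191, 144, 151 and 118 CPM (log2FC -5.30, SE 0.26, adjusted p = 7.53e-08). No library of either group came near the other for these 3 genes. In bulk RNA, less of a transcript in every cell and fewer cells that hold it cannot be told apart. The Krüppel-like factors were not equally changed, with log2 fold changes of -4.96 for Klf4, -2.73 for Klf5 and -2.64 for Klf2. The nuclear receptor Nr5a2 (-4.78), the Akt cofactor Tcl1 (-4.33), the adhesion molecule Jam2 (-5.14), osteopontin Spp1 (-3.70) and threonine dehydrogenase Tdh (-3.84) were called lower as well. At the other end Fgf4, Pecam1 and Dppa5a were lower by about 1.2 on the log2 scale, and the imprint guardian Zfp57, at -0.78, passed the adjusted p but not the fold threshold. Gbx2, a homeobox factor counted in this list and among Stat3 targets, was the exception, at 48.7, 49.6, 73.01 and 74.6 CPM in libraries labelled 2iL and 20.6, 18.03, 19.1 and 21.02 CPM in those labelled 48 h (log2FC 1.62, SE 0.10, adjusted p = 5.02e-07).

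Genes shared by naive and later pluripotent cells were mixed, with 4 called higher, 1 lower and 7 not called of 12. The share called was 41.7%, beside 24% of all genes tested. Pou5f1 (Oct4), the core pluripotency factor, had 490.0, 448, 481 and 439 CPM where labelled 2iL and 526, 533, 512 and 509 CPM where labelled 48 h, a log2 fold change of -0.17 (SE 0.04). Its partner Sox2, whose gene lies within the long noncoding Sox2ot, was called lower, at 85.1, 103, 76.6 and 74.99 against 289.7, 266, 263 and 229 CPM (log2FC -1.63, SE 0.07, adjusted p = 2.36e-08). The difference was thus 1.12-fold for Pou5f1, under the threshold, and 3.10-fold for Sox2. Lin28a, which blocks let-7 maturation, was 11.3-fold higher (454, 409, 399 and 414 against 36.6, 30.7, 44.9 and 37.1 CPM), and the chromatin protein Utf1 12.5-fold higher (137, 133, 132 and 141 against 13.7, 7.88, 13.2 and 9.21 CPM). Sall4 (-0.40) and Trim28 (-0.02) were not called.

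The formative programme was the counterpart. All 20 listed genes were tested, 17 were called higher in the libraries labelled 2iL and 0 lower, with a median of 3.27. At the adjusted p alone all 20 were higher, beside 6755 of all 21240 genes tested. Lef1, the Wnt effector that binds DNA in the primed state, had 115, 92.9, 92.4 and 95.7 CPM against 3.33, 3.08, 3.61 and 5.55 CPM (log2FC 4.69, SE 0.14, adjusted p = 3.47e-09). Sox3, a SoxB1 factor of the epiblast and neural plate, had 10.6, 8.29, 10.2 and 11.9 against 0.478, 0.580, 0.501 and 0.820 CPM (log2FC 4.12, SE 0.15, adjusted p = 9.15e-09). The groups did not overlap for either gene. Fgf5, a ligand used as the classical marker of the postimplantation epiblast, was called (log2FC 4.002, SE 0.27, adjusted p = 6.36e-07) but low in all libraries, at 0.03 to 3.96 CPM. Further members were the ligand Wnt8a (5.38), the kinase Pim2 (4.03), the epithelial factor Grhl2 (3.49), the let-7 regulator Lin28b (2.85) and Sall2 (2.97). Zic2 (0.99), Zic5 (0.95) and Epha2 (0.37) passed the adjusted p only.

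Enzymes of DNA methylation held 2 of the 5 largest gains in CPM. On their list 3 of 9 genes were called higher and 0 lower (33.3%), near the 24% of all genes tested that were called. At the adjusted p alone 5 were higher and 3 lower, beside 6755 and 6810 of all 21240 genes. Dnmt3b, a de novo methyltransferase, had 1160.1, 883, 783 and 674 CPM in the libraries labelled 2iL and 76.6, 69.7, 80.9 and 78.7 CPM in those labelled 48 h (log2FC 3.49, SE 0.12, adjusted p = 8.17e-09). Dnmt3a, its paralogue, had 516, 461, 499.9 and 476 against 27.5, 31.2, 31.5 and 39.96 CPM (log2FC 3.92, SE 0.09, adjusted p = 1.07e-09), and their cofactor Dnmt3l 249, 242, 221 and 219 against 4.55, 4.43, 9.98 and 9.47 CPM (log2FC 5.09, SE 0.23, adjusted p = 4.02e-08). The 3 de novo genes thus moved together by 11.2 to 34.04-fold. The maintenance enzymes did not pass the fold threshold, with -0.28 for Dnmt1 and -0.47 for its partner Uhrf1. Of the TET oxidases that remove methylation, Tet1 had a log2 fold change of 0.06 (SE 0.08), Tet2 of -0.95 (SE 0.09) and Tet3 of 0.93 (SE 0.10), none of them called, although Tet2 passed the threshold without replicate 2_2 (-1.03).

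**Figure D4:**
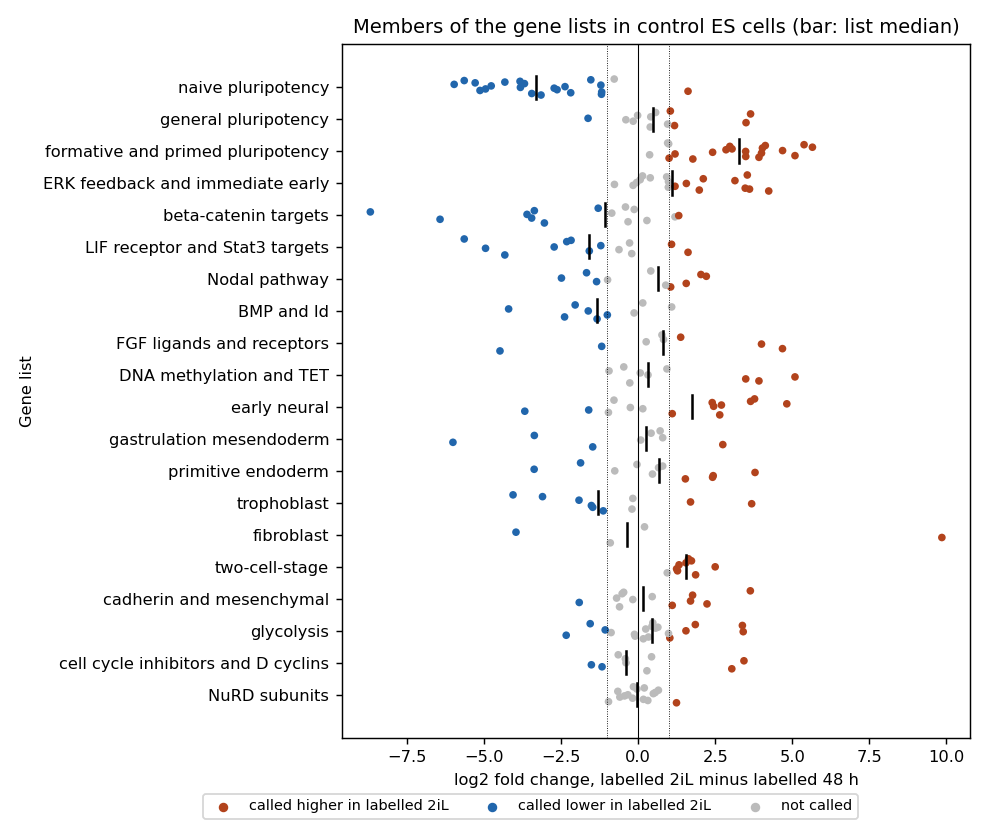
Log2 fold change (labelled 2iL minus labelled 48 h) of the tested members of 20 gene lists, 1 point a gene, coloured by call, with a bar at each list's median and dotted lines at the fold threshold. Naive genes lie to the left (median -3.31) and formative genes to the right (median 3.27), and the rightmost point, Dcn, had 0 counts in all libraries labelled 48 h, so its fitted value is no estimate of size.

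Genes that report Erk activity were higher in the libraries labelled 2iL in part. Of 18 targets and feedback inhibitors 9 were called higher and 0 lower. Dusp6, a phosphatase that acts back on Erk, had 144, 136, 208 and 186 CPM against 15.3, 10.4, 17.96 and 11.5 CPM (log2FC 3.61, SE 0.11, adjusted p = 3.71e-09), and Dusp4 40.8, 37.3, 43.8 and 41.5 against 2.16, 1.69, 2.29 and 2.53 CPM (log2FC 4.24, SE 0.08, adjusted p = 5.33e-10). Spry4, an inhibitor of receptor signalling, had 31.1, 28.4, 49.98 and 36.6 CPM where labelled 2iL and 3.70, 0.475, 9.38 and 1.52 CPM where labelled 48 h (log2FC 3.54, SE 0.37, adjusted p = 1.87e-05). Within the libraries labelled 48 h Spry4 was lower in 1_2 and 2_2 than in 1_1 and 2_1. Egr1, an immediate early factor, had 14.9, 11.5, 13.04 and 9.35 against 0.0709, 2.72, 0.167 and 2.23 CPM (log2FC 3.47, SE 0.61, adjusted p = 6.35e-04), here with the libraries 1_1 and 2_1 the lower ones of those labelled 48 h. Myc was called higher (3.14), as were Spred1 (2.11), Dusp5 (1.98), Fosl1 (1.56) and Etv4 (1.19). Other targets of the same pathway were not: Spry2 (0.14, SE 0.08), Etv5 (-0.17), Ier2 (-0.05) and Fos (-0.77), the last counted at 0.73 to 2.14 CPM.

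Among the FGF ligands that feed this pathway, Fgf4, the autocrine ligand of ES cells, was lower at 114, 102, 108 and 79.7 against 249, 229, 225 and 212 CPM (log2FC -1.19, SE 0.06, adjusted p = 8.75e-08), while the weakly counted Fgf15 was higher (4.68) and Fgf10 lower (-4.49). The receptors changed less, with 0.26 for Fgfr1 and 0.82 for Fgfr2, neither of them called, and 1.38 for the weakly counted Fgfr3, called higher. Fgf8 was counted at 0.05 to 0.31 CPM and not tested. In this list 3 of 8 tested genes were called higher and 2 lower.

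Targets of beta-catenin were lower in the libraries labelled 2iL, 7 of 14 being called lower and 1 higher. Sp5, a direct Wnt target that encodes a zinc finger factor (chromosome 2, 70474923 to 70477729, GRCm38), had 0.118, 0.0206, 0.0618 and 0.0883 CPM where the label says 2iL and 35.3, 29.1, 27.03 and 33.5 CPM where it says 48 h (log2FC -8.70, SE 0.16, adjusted p = 3.65e-10). Its counts in the 4 libraries labelled 2iL came to 14 in all, so the fold rests on few counts at that end. Cdx1, a caudal homeobox factor, had 0.612, 0.660, 0.742 and 1.13 against 57.02, 73.5, 53.9 and 87.8 CPM (log2FC -6.44, SE 0.10, adjusted p = 1.86e-10), and Axin2, the negative feedback scaffold, 5.94, 6.06, 9.66 and 9.88 against 74.2, 65.4, 62.97 and 55.01 CPM (log2FC -3.05, SE 0.17, adjusted p = 1.94e-07). The secreted inhibitors Notum (-3.61) and Dkk1 (-3.46) and the streak factor T (-3.38) were called lower too. Dkk1 and T were weakly counted in both groups, so their folds are less certain than that of Notum. Nkd1, another feedback inhibitor, was called higher (1.31), and Tcf7 (-0.13), Znrf3 (-0.42) and Ccnd1 (0.28) were not called.

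The promoter of Sp5 is shown because this gene had the largest drop of the list. It covers 250 bases before to 50 after the RefSeq start at chr2:70474673-70474972 (GRCm38.p6, plus strand), with the TCF/LEF motif, searched as CTTTGAA or CTTTGAT on both strands, in capitals:
Sp5: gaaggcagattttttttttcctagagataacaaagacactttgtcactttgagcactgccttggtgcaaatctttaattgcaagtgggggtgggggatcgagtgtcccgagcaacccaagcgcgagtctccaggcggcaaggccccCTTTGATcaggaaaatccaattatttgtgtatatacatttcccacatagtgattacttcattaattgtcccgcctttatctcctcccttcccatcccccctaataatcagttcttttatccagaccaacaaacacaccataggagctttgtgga
The motif was found once here, at -104 from the start, and in 3 of 8 promoters of the list that matched by symbol (Dkk1, Sp5, T). It was found in 8.05% of 19584 promoters of that length, 1 a gene, in 5.94% of those of genes called higher and in 7.62% of those of genes called lower. A match is a description of these letters and not a bound site.

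Of 13 genes of LIF signalling 8 were called lower, 2 higher and 3 not called. Lifr, the receptor chain, had 47.3, 49.7, 49.4 and 45.98 CPM against 128, 104, 117 and 99.6 CPM (log2FC -1.22, SE 0.06, adjusted p = 1.09e-07), and Stat3, its transcription factor, 21.8, 26.8, 19.6 and 22.97 against 110.2, 105, 96.1 and 100.2 CPM (log2FC -2.18, SE 0.07, adjusted p = 4.03e-09). Socs3, the feedback inhibitor and most direct Stat3 target, had 7.64, 8.74, 8.90 and 11.5 CPM in libraries labelled 2iL and 44.3, 49.8, 36.6 and 53.2 CPM in those labelled 48 h (log2FC -2.32, SE 0.09, adjusted p = 1.37e-08). Bcl3, another Stat3 target, was 20.2-fold lower, and the shared receptor chain Il6st (-1.59) was called lower too. The kinase Pim1 (1.08) and Gbx2 were higher although both are counted as Stat3 targets. With spike-in scaling only 1 member of the list was called higher. The genes not called were the kinase Pim3 (-0.28), the AP-1 factor Junb (-0.63) and the feedback inhibitor Cish (-0.21). Klf4, Klf5 and Tfcp2l1 belong to this list as well as to the naive one.

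Socs3 is the list member with a STAT motif in its promoter that was called. Its RefSeq promoter at chr11:117969317-117969616 (GRCm38.p6, minus strand) is given 5′ to 3′ with the motif TTCNNNGAA in capitals:
Socs3: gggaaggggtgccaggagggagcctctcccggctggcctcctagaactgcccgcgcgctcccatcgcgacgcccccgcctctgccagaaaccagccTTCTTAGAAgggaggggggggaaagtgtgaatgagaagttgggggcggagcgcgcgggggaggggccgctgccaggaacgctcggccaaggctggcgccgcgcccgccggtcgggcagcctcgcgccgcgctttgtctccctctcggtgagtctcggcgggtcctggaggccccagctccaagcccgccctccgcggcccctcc
The STAT motif, a palindrome, begins at -154 from the start. It was present in 2 of 12 promoters of the list (Cish, Socs3), in 7.996% of all 19584, in 5.65% of those of genes called higher and in 6.98% of those of genes called lower. The beta-catenin list held it in 2 of 8 promoters (T, Tnfrsf19), so the motif was not particular to the LIF list.

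In the Nodal list 4 of 10 tested genes were called higher and 3 lower. Nodal, the ligand, stood at the fold threshold with 27.1, 31.8, 30.3 and 38.9 CPM against 68.7, 58.7, 65.4 and 61.2 CPM (log2FC -0.997, SE 0.10, adjusted p = 9.60e-06) and was not called, though it was without replicate 1_2 (-1.04) or 2_2 (-1.11). Its inhibitors went in opposite directions. Lefty1 had 31.4, 43.9, 45.5 and 74.4 against 25.2, 15.6, 15.1 and 9.73 CPM (log2FC 1.56, SE 0.31, adjusted p = 0.00149) and Lefty2 12.6, 16.5, 20.3 and 25.3 against 78.7, 61.6, 35.99 and 26.1 CPM (log2FC -1.35, SE 0.34, adjusted p = 0.00529), with Lefty2 in replicate 2_2 labelled 48 h close to the values of the other group. Without replicate 1_1 the Lefty2 change was -0.92 and no longer called. The proprotein convertase Pcsk6 (-2.50) and Smad7 (-1.68) were lower, and Skil (2.03) and the receptor Acvr2b (1.05) higher. In the BMP list 6 of 9 tested genes were called lower and 0 higher, though 1 was called higher in some alternatives, such as without the replicate block. Those called lower included Id4 (-4.21), Bmp7 (-2.39) and Id3, at 7.05, 13.8, 3.83 and 8.41 against 30.4, 15.8, 35.5 and 18.4 CPM (log2FC -1.62, SE 0.37, adjusted p = 0.00338). Id1 passed the fold threshold narrowly (-1.01) at 0.53 to 3.94 CPM. It did not without replicate 1_1 (-0.83) or 2_1 (-0.94), or without the block (-0.93, adjusted p = 0.088 in edgeR). Nor did it with DESeq2 size factors, total counts only, 1 fit of all 16 libraries or thinned counts. Bmp4 (-1.34) was also weakly counted.

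Early neural genes were higher where the label says 2iL, 8 of 14 tested genes being called higher and 2 lower. Sox1, the earliest specific factor of the neural plate, had 40.3, 46.4, 50.2 and 57.3 CPM against 0.833, 1.53, 2.08 and 2.70 CPM (log2FC 4.82, SE 0.15, adjusted p = 4.53e-09). Pax6, of later neural progenitors, had 9.81, 13.3, 10.3 and 10.6 against 2.39, 0.765, 3.39 and 1.69 CPM (log2FC 2.45, SE 0.29, adjusted p = 4.45e-05). Nes, an intermediate filament of neural progenitors, was not called (0.15, SE 0.10). Sox4 (3.65), Sox11 (2.40), Sfrp2 (2.70) and Cdh2 (1.10) were called higher, Hesx1 (-3.69) and Ncam1 (-1.61) lower. Hes5, Neurog2, Six3 and Pax3 did not pass the filter on low counts.

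Defining markers of other lineages were weakly counted in both groups. Summed over T, Eomes, Mixl1 and Foxa2, genes of the primitive streak came to 3.44 to 4.41 CPM in the libraries labelled 2iL and 9.25 to 12.3 CPM in those labelled 48 h, with T and Eomes (-1.48) called lower and Foxa2 (2.75), at 0.49 CPM or less, higher. For primitive endoderm, Gata4, Gata6, Sox17 and Pdgfra summed to 3.55 to 16.7 CPM and 3.19 to 4.24 CPM. Gata6 was called higher, at 0.631, 1.51, 5.38 and 7.06 against 0.0709, 0.316, 0.358 and 0.211 CPM (log2FC 3.79, SE 0.36, adjusted p = 8.13e-06), and the replicates that start with 2 held most of it in the libraries labelled 2iL. Pdgfra had 0.691, 0.598, 3.46 and 4.43 against 2.002, 0.791, 0.979 and 1.01 CPM and was not called (log2FC 0.66, SE 0.53, adjusted p = 0.302), but without replicate 1_1 it was (1.42). Over the 11 genes of that list 4 were called higher and 2 lower, the latter Lama1 (-3.38) and Sparc (-1.87), genes of the basement membrane. Trophoblast markers Cdx2, Elf5, Gata3 and Hand1 summed to 0.928 to 1.73 CPM and 1.42 to 1.78 CPM. Over the 10 genes of that list 2 were called higher, Hand1 (3.68) and the keratin Krt18 (1.70), and 6 lower. Cdx2 (-1.14) and Gata3 (-1.52) were called lower, but not without replicate 1_1 (-0.86 and -1.19), and Gata3 not without 2_2 (-1.25). Tfap2c (-4.07) and Tead4 (-3.11), factors that naive ES cells and trophoblast share, were called lower. The fibroblast markers Col1a1, Col1a2, Col3a1 and Thy1 summed to 1.22 to 2.54 CPM and 1.74 to 2.06 CPM, with Col1a1 and Thy1 not called and the other two not tested. The receptor Pdgfrb was called lower (-3.97). Dcn, a proteoglycan of connective tissue, was counted 66 to 171 times in each library labelled 2iL and 0 times in all 4 labelled 48 h, at least 30.3-fold higher with a floor of 3 counts per library. The part of other cells in the changes above was not tested.

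Genes of the 2-cell-like state, which a small share of ES cells enters at a time, were called higher in 8 of 9 tested cases and lower in 0. Zscan4c had 10.1, 18.6, 29.5 and 34.4 CPM where labelled 2iL and 2.80, 5.75, 9.62 and 15.6 CPM where labelled 48 h (log2FC 1.55, SE 0.11, adjusted p = 9.14e-07). Replicate 1_1 was the lowest and 2_2 the highest in both groups, so the groups overlapped although all 4 same-numbered pairs differed in 1 direction. Zfp352 (2.50) and Gm4340 (1.86) were called too. Zscan4 genes are near-identical copies, and how reads were divided between them is not stated, so single members are uncertain.

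Of 12 cadherin and mesenchymal genes 5 were called higher and 1 lower. E-cadherin (Cdh1) had 270.0, 267, 296 and 279 CPM against 417, 413, 412 and 452 CPM (log2FC -0.61, SE 0.05, adjusted p = 1.44e-06) and was not called, while N-cadherin (Cdh2) was called higher at 8.01, 7.57, 8.80 and 11.6 against 4.68, 3.98, 4.58 and 3.33 CPM, though not without replicate 2_2 (0.88). Epcam, an epithelial adhesion molecule, was 4.70-fold higher, and Fn1, fibronectin, 3.78-fold lower at 199, 222, 182 and 187 against 772, 932, 578 and 733 CPM. The repressor Zeb2 (3.64) and Twist1 (1.76) were called higher, Vim (-0.52), Snai1 (-0.70) and Zeb1 (-0.47) were not.

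Genes of glycolysis moved both ways. Of 19 genes 5 were called higher and 3 lower (42.1%, beside 24% of all genes tested), with a median of 0.44. The glucose transporter Slc2a1 had 465, 556, 408 and 595 CPM against 114, 133, 128 and 189 CPM (log2FC 1.85, SE 0.07, adjusted p = 1.85e-08), and Slc2a3, a second transporter, 375, 565, 402 and 523 against 1201, 1408, 1268 and 1576 CPM (log2FC -1.56, SE 0.06, adjusted p = 1.40e-08), the second largest loss in CPM of all genes called. Pdk1, which holds pyruvate back from mitochondria, was 10.6-fold higher and the lactate exporter Slc16a3 10.4-fold higher. Hk1 (-2.34) and Pfkp (-1.08) were lower and Pfkl (1.55) and Eno1 (1.03) higher. Ldha, lactate dehydrogenase A, was just under the threshold (0.98), past it without replicate 2_2 (1.06), and Hk2 not called (-0.12).

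Among 9 D cyclins and CDK inhibitors 2 were called higher and 2 lower (44.4%, beside 24% of all genes tested). Ccnd2 was called higher at 5.76, 4.91, 9.60 and 11.1 against 0.691, 0.527, 1.53 and 1.10 CPM (log2FC 3.04, SE 0.15, adjusted p = 6.62e-08) and Ccnd3 lower (-1.18), while Ccnd1 was not called. Cdkn1c, an imprinted inhibitor, was 10.8-fold higher and Cdkn1a (p21) 2.87-fold lower. Subunits of the NuRD chromatin remodelling complex, whose Mta proteins the study deletes, mostly stayed under the fold threshold. Of 15 subunits 1, Cdk2ap1 (1.24), was called higher, where 24% of all genes tested were called in either direction. At the adjusted p alone 7 subunits were higher and 7 lower, beside 6755 and 6810 of all 21240 genes. Mta1 (0.55, SE 0.06) and Mta3 (0.65, SE 0.06) were higher and Mta2 (-0.66, SE 0.04) lower in the libraries labelled 2iL, each with an adjusted p under 0.05 in edgeR and less than the fold threshold.

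The largest changes were found outside these lists for the most part. Among protein-coding genes with at least 5 CPM in 1 group and the same direction in all 4 pairs, the largest increases in the libraries labelled 2iL were those of Enpp2, the secreted enzyme autotaxin, at 35.9, 18.8, 19.5 and 10.4 against 0.0532, 0, 0.0716 and 0.0234 CPM (log2FC 9.06, SE 0.21, adjusted p = 8.57e-10), and of Car4, a carbonic anhydrase, at 11.4, 11.4, 18.3 and 20.7 against 0, 0.0264, 0.0478 and 0.117 CPM (log2FC 8.33, SE 0.24, adjusted p = 2.39e-09). Large increases were also found for Ccdc194 (7.83), the zinc finger factor Insm1 (7.05), Fndc3c1 (7.01), the repressor Bcl11a (6.94), the cytokine Tnfsf11 (6.77), the chemokine Cxcl12 (6.64) and the Notch ligand Dll1. Dll1 had 30.2, 31.7, 33.4 and 36.9 CPM where labelled 2iL and 0.266, 0.132, 0.454 and 0.469 CPM where labelled 48 h (log2FC 6.63, SE 0.16, adjusted p = 1.02e-09). Most of these genes were near 0 in the libraries labelled 48 h, with 7 to 59 counts over the 4, so their folds are less certain than their presence in the other group.

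At the other end Srarp had 0 counts in all 4 libraries labelled 2iL and 220 to 381 in each labelled 48 h, at least 93.7-fold lower with a floor of 3 counts per library. Spic, an Ets factor of naive ES cells, had 0, 0.0619, 0.0206 and 0.0662 CPM against 21.7, 19.1, 13.3 and 11.95 CPM (log2FC -8.73, SE 0.25, adjusted p = 2.76e-09). Aqp3, a water and glycerol channel, had 1.05, 1.18, 1.38 and 1.26 against 144, 159, 124 and 172 CPM (log2FC -6.94, SE 0.10, adjusted p = 1.86e-10), and the cation channel Trpm1 0.178, 0.289, 0.433 and 0.287 against 59.2, 54.7, 48.6 and 47.4 CPM (log2FC -7.46, SE 0.15, adjusted p = 5.66e-10). These were high in every library labelled 48 h. Cnga4 (-7.88), Serpinb1a (-7.55) and Sp100 (-6.79) followed with Sp5. Bhmt and Dmgdh, neighbours on chromosome 13 that both act in the breakdown of betaine to glycine, were among the 10 too. Bhmt had 0.0987, 0.309, 0.0412 and 0.154 against 25.3, 26.6, 4.13 and 4.41 CPM, so that its level in the libraries labelled 48 h was several times higher in replicates 1_1 and 1_2 than in 2_1 and 2_2, and Dmgdh (0.237, 0.247, 0.185 and 0.0221 against 25.9, 25.4, 7.12 and 7.92 CPM) had the same pattern.

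In CPM, the gains were led by Dnmt3b, the ubiquitin ligase Mkrn1 (735, 795, 742 and 763 against 173, 192, 217 and 223 CPM), Tuba1a, Dnmt3a and Rian, a noncoding RNA of the imprinted Dlk1-Dio3 region (1.53). Tuba1a, an alpha-tubulin with close copies, was called in the main test (log2FC 1.05, SE 0.16, adjusted p = 2.24e-04) but stood under the threshold without the replicate block (0.98), with spike-in scaling (0.89) and without replicate 1_1 (0.89) or 2_2 (0.99), and its level in replicate 2_1 labelled 48 h was close to those of the other group, 813 CPM against 886 CPM at the lowest there. Losses in CPM were led by Tfcp2l1, Slc2a3, Nanog, Esrrb and Asns, asparagine synthetase, at 238, 299.9, 242 and 262 CPM against 842, 859, 795 and 798 CPM (log2FC -1.67, SE 0.05, adjusted p = 4.75e-09).

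The Mta123KO libraries, from cells with Mta1, Mta2 and Mta3 deleted, carry the same disagreement between labels and file names. Where labelled 2iL, Mta1 averaged 41.97 CPM in control and 24.6 CPM in Mta123KO, Mta2 123 and 6.71 CPM, and Mta3 65.1 and 18.9 CPM, counted over whole genes and not over the deleted exons. The interaction of culture and genotype, fitted over all 16 libraries with replicate number within genotype as block, was called for 3788 of 22973 genes (16.5%), with 2182 control changes more positive and 1606 more negative than in Mta123KO. With spike-in scaling the counts were 1731 and 2059. Of the 2881 genes called higher in control, 1580 were called with a more positive and 97 with a more negative change, and of the 2221 called lower, 1074 with a more negative and 12 with a more positive change. Since these genes were chosen by their change in control, which enters the interaction too, part of this direction is set by the choice. Klf4 changed by -4.96 in control and -2.07 in Mta123KO, and the difference was called in edgeR (interaction -2.88, SE 0.23, adjusted p = 2.21e-06). For Esrrb the changes were -3.46 and -1.72 (interaction -1.73, SE 0.22, adjusted p = 9.47e-05), and for Nanog -3.83 and -3.36 (interaction -0.45, SE 0.20, adjusted p = 0.0908), the last not called. In the naive list 13 of 22 genes were called with a more negative change in control and 1, Gbx2, with a more positive one. In the formative list 13 of 20 were called with a more positive change, such as Dnmt3l (interaction 3.48, SE 0.30, adjusted p = 5.18e-06) and Pou3f1 (interaction 2.36, SE 0.34, adjusted p = 2.30e-04). There 1, Etv4, was called with a more negative change (interaction -1.57, SE 0.14, adjusted p = 7.12e-06). In the 2-cell-like list 8 of 10 genes were called with a more negative change in control and 0 with a more positive one.

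**Figure D5:**
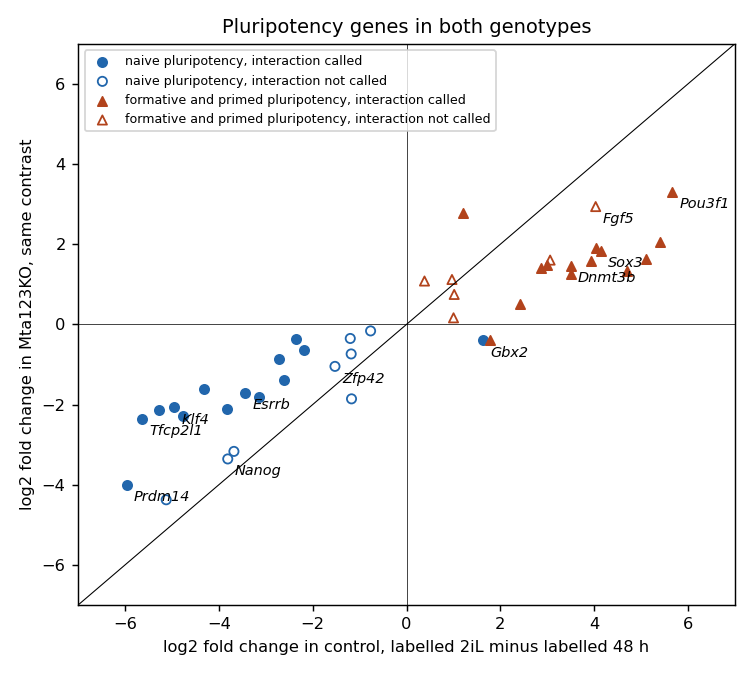
Log2 fold change (labelled 2iL minus labelled 48 h) of naive and formative genes in control (horizontal) and Mta123KO (vertical), both from the fit of 16 libraries, with filled points where the interaction was called and a diagonal of equal change. Most filled naive points lie above the diagonal and most filled formative points under it, closer to 0 in Mta123KO.

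Genes with a large positive interaction among those also called in control were Enpp2 (interaction 7.11, SE 0.78, adjusted p = 2.67e-05), Sema6a (interaction 5.79, SE 0.23, adjusted p = 2.40e-08), Ccdc194 (interaction 5.54, SE 0.54, adjusted p = 1.19e-05) and Car4 (interaction 5.49, SE 0.82, adjusted p = 2.63e-04). Car4 averaged 15.5 CPM in control and 18.8 CPM in Mta123KO where labelled 2iL, and 0.0477 and 2.999 CPM where labelled 48 h, on the scale of the 16 libraries. Enpp2 averaged 21.4 CPM in control labelled 2iL and 0.721 CPM in Mta123KO labelled 2iL. Sema6a, a semaphorin, had a control change of 4.69 and a Mta123KO change of -1.08. The most negative were Lrrc15 (interaction -7.53, SE 0.28, adjusted p = 1.42e-08), Srarp (interaction -6.86, SE 1.73, adjusted p = 0.0132), Slc26a9 (interaction -5.81, SE 0.69, adjusted p = 4.75e-05), Cnga4 (interaction -5.31, SE 0.75, adjusted p = 1.89e-04) and Gm42987 (interaction -5.09, SE 0.29, adjusted p = 2.34e-07), with Srarp resting on the 0 counts in control. Lrrc15 averaged 0.204 CPM in control and 38.5 CPM in Mta123KO where labelled 2iL, and 16.3 and 15.8 CPM where labelled 48 h.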

How the data were processed

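Libraries were made with directional kits (NEXTflex Rapid Directional or SMARTer Stranded Total RNA-Seq v2 Pico), and which kit served which library is not given in the sources used here. The deposited values are raw gene counts per library, for which the authors trimmed reads with Trim Galore 0.4.1, used TopHat 2.1.0 for alignment (GRCm38/mm10) and featureCounts 1.5.0 for counting over Ensembl 86 genes. The strand setting is not given in the sources used here, so a gene and its antisense partner may share reads, as may near-identical copies.

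For the comparison, 48709 genes were taken and the 92 spike-in rows kept out of library sizes. Of the genes, 48349 had a name in the GENCODE vM21 annotation. The 21240 genes kept by filterByExpr were fitted with edgeR 4.0.16 (R 4.3.3), TMM normalisation and the quasi-likelihood test, with the replicate number as block. A call needed both a p of less than 0.05 after Benjamini-Hochberg adjustment and a log2FC beyond 1 in size. The comparison was defined with the replicate number as block. Looked at afterwards, deviations from the group means correlated at 0.272 to 0.337 in all 4 same-numbered pairs. Between numbers that share only the first digit the correlation was 0.159 to 0.221, and between numbers with other first digits -0.331 to -0.189. Part of the correlation is thus shared by libraries of 1 first digit. Deviations from a group mean cancel over its libraries, so the negative values follow in part from the centring and are no evidence for the pairing. The common biological coefficient of variation, the square root of the dispersion, was 0.0857 with the block and 0.134 without it. In simulated counts for this comparison, over 21240 genes, the fit recovered 100% of 109 genes changed by 1.5 and of 91 changed by 2 on the log2 scale, with 4 false calls. These counts had a dispersion set by the mean level and no replicate effects, and only genes of at least 1 CPM were changed. Weaker genes and changes near the fold threshold are thus not covered.

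Besides list members, the text names the 10 protein-coding genes with the largest change in each direction among those called with at least 5 CPM in 1 group and 1 direction in all 4 pairs, the 5 with the largest gain and loss in CPM, and the 5 with the largest interaction in each direction. Some genes that these rules or the lists name are not reported here. Members and lists were chosen with earlier results of these data known. Alternatives were other blocks, scalings, filters, thinned counts, DESeq2 1.42.0, 1 fit of all 16 libraries and leaving out each replicate.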

Additional observations from a re-analysis of the deposited data

Results flagged for a closer look

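Among the groups of 4 libraries checked for each named gene, 208 in all, 5 held a library whose gap to the next took a larger share of the whole range than Dixon's test allows at the 5% level, and chance flags about 1 group in 20. In the libraries labelled 2iL these were Lef1 (gap 0.852 of the range, 1_1 at 115 CPM and the next at 95.7 CPM), Bcl3 (0.837, 2_2 at 2.29 and the next at 1.63 CPM) and Tet1 (0.911, 1_1 the lowest at 449 and the next at 515 CPM). In the libraries labelled 48 h they were Cdh1 (0.877, 2_2 at 452 and the next at 417 CPM) and Tuba1a (0.922, 2_1 at 813 and the next at 425 CPM).

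The interaction test of edgeR called the culture changes different between genotypes for 5 of the 9 markers, beside 16.5% of all genes tested. The differences called, control minus Mta123KO on the log2 scale, were -1.73 for Esrrb and -2.88 for Klf4 among naive genes. Among formative genes they were 2.36 for Pou3f1, 2.04 for Dnmt3b and 2.30 for Sox3. Zfp42 passed the adjusted p but not the fold threshold (interaction -0.48, SE 0.09, adjusted p = 0.0012). Of the genes named for their interaction, Enpp2 (7.11), Sema6a (5.79), Ccdc194 (5.54) and Car4 (5.49) had the more positive change in control, and Lrrc15 (-7.53), Srarp (-6.86), Slc26a9 (-5.81), Cnga4 (-5.31) and Gm42987 (-5.09) the more negative one. Labels and file names disagree on the culture in both genotypes, so an exchange of all labels would turn every one of these signs.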

How the results depend on the processing

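All 4 naive markers were lower in the libraries labelled 2iL in each of the 14 alternatives, and the counts of genes called stayed within 1.5 times the main counts, from 2543 to 3602 higher and from 2135 to 2743 lower, except without a fold change threshold, which gave 6755 higher and 6810 lower in place of 2881 and 2221. Spike-in scaling turned the balance of calls, with 2543 higher and 2743 lower. Leaving out 1 replicate gave 2882 to 2971 higher and 2191 to 2338 lower. Without the replicate block 2805 genes were higher and 2210 lower, 4974 of them shared with the blocked fit, and the interaction was called for 1759 positive and 1234 negative genes in place of 2182 and 1606. Leaving out 1 replicate number gave 1832 to 2046 and 1290 to 1568. The block changed no other call of a named gene than those of Id1 (-0.93 without it) and Tuba1a (0.98). Spike-in scaling shifted the median of all genes to -0.16 and turned Spry2 (-0.018), Tet1 (-0.091) and Nes (-0.0095), none of them called in either fit. Of 1410 values over 101 named genes and the alternatives, 1380 kept direction and call, 17 lost the call, 10 gained it and 3 changed sign. The causes were not tested. Low counts limit the folds of genes near 0 in 1 group.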

Other observations

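Replicate numbers carried their own patterns, chosen here after their values were seen. Among 12572 genes, 25 were higher and 25 lower by more than 1 on the log2 scale in both libraries whose number starts with 2 than in those that start with 1 where labelled 2iL, and 32 and 18 where labelled 48 h. Baiap2l1, an adaptor of actin at membranes, had 3.85, 4.89, 163 and 166 CPM in the libraries labelled 2iL (1_1, 1_2, 2_1 and 2_2) and 1.75, 2.32, 124 and 132 CPM in those labelled 48 h. Peg10, an imprinted gene derived from a retrotransposon, had 104, 136, 240 and 331 CPM and 15.1, 18.1, 61.9 and 71.1 CPM. Both cultures thus showed the same split by first digit for these genes.

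The second digit separated fewer genes. In the libraries labelled 2iL 0 genes differed by it in this way, and in those labelled 48 h 4 were higher and 3 lower where it is 2. The lower ones were Spry4, with 3.70, 0.475, 9.38 and 1.52 CPM, Myc, with 4.11, 0.870, 5.52 and 1.55 CPM, and Nt5e, a nucleotidase, with 3.86, 1.74, 6.59 and 2.60 CPM. The higher ones were Zscan4b, Zscan4e, Rnf225 (10.6, 23.6, 10.7 and 25.6 CPM) and Nfe2l3 (3.81, 12.05, 4.32 and 10.2 CPM). Egr1, too low for this count, had 0.0709, 2.72, 0.167 and 2.23 CPM, opposite to Spry4 and Myc. All 9 tested genes of the 2-cell-like list were higher where either digit is 2 in the libraries labelled 2iL. In those labelled 48 h 8 of the 9 were higher and 0 lower, for each digit. The share over all genes was not taken for this count.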
